A study of Mus musculus with 32 samples.

Results

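Keratins are the filament proteins of epithelial cells, and the count table held 52 genes of this family, found as every symbol made of Krt, a number and at most 1 letter, among 24421 gene rows. Sequenced RNA came from extraocular muscle (EOM), which turns the eyeball, from the leg muscle tibialis anterior (TA), and from brain samples labelled oculomotor neurons (CN3) and abducens motor neurons (CN6). The mice were B6(CG)Tyr(c-2J)/J mice, an albino strain whose involuntary eye movement (nystagmus) the series addresses, and pigmented C57BL/6. Each of these 8 groups had 4 libraries, 32 in all. The labels give no age or sex and do not say that replicates are separate animals, so p-values measure the spread between these samples, which may be technical. Levels are CPM, reads scaled to the deposited library total.

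In 8 of the 16 albino libraries the label did not match the tissue that the markers showed, and the albino groups used here follow the markers. Albino EOM combined 2 libraries so labelled (replicates 3 and 4) with those labelled albino CN3 3 and CN3 4. Albino TA likewise combined its replicates 3 and 4 with those labelled albino CN6 3 and CN6 4. Albino CN3 combined its replicates 1 and 2 with those labelled albino EOM 1 and EOM 2, and albino CN6 its replicates 1 and 2 with those labelled albino TA 1 and TA 2. Because labels and markers disagree, the genotype calls are also given for the label-matching and label-differing libraries alone. Myh13, the extraocular myosin heavy chain, was 3742 to 4459 CPM in albino EOM and 4272 to 4980 CPM in C57BL/6 EOM, against 19.5 to 94.0 CPM in albino TA and 23.8 to 34.8 CPM in C57BL/6 TA. Totals ran from 18544334 to 44254021 counts per library, and 18544334 to 24446789 in EOM.

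Keratin filaments are built from pairs of a type I and a type II protein, and which pair a cell makes depends on its kind of epithelium. Krt5 with Krt14 or Krt15 marks the basal layer of stratified epithelia, Krt4 with Krt13 the upper layers of mucosa such as conjunctiva, Krt12 the corneal epithelium, and Krt8 with Krt18 simple epithelia and gland ducts. Muscle fibres carry desmin filaments, so keratin reads in muscle samples are commonly read as epithelial content, although Krt8 and Krt19 are also known from muscle fibres in mouse. In bulk samples, fewer cells of a type and less RNA per cell cannot be told apart.

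The family sits in 2 clusters (mm10, GENCODE positions, found for 51 of the 52). The 27 members on chromosome 11 lie between 99232761 and 100269871, and the 24 on chromosome 15 lie between 101347444 and 102032027. By number, 27 members are type I, 24 are type II, and Krt222 is neither. No read fell on 2 of the 52 in any library. In EOM, 22 members had a read in all 8 libraries and 6 had none. The 23 with a mean of at least 0.5 CPM in either EOM group are described with their values, and the other 29 reached at most 1.24 CPM in any EOM library (Krt16).

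The promoters of 4 keratins are shown because these genes follow different orders across the EOM libraries given further on: Krt5 and Krt13 keep close to the order of the summed keratins, and Krt12 and Krt18 do not. The RefSeq table (GRCm38.p6) held promoters for 35 of the 52 members, 14 of them among the 23. Each line gives the 250 bases before the start, 5′ to 3′ on the gene's own strand. Capitals mark 1 of 3 motifs searched on both strands: TATAAA (the core box of many promoters), TGANTCA (the form bound by AP-1 factors) and GCCNNNGGC (the form bound by AP-2 factors).
Krt5, chr15:101712906-101713155, minus strand: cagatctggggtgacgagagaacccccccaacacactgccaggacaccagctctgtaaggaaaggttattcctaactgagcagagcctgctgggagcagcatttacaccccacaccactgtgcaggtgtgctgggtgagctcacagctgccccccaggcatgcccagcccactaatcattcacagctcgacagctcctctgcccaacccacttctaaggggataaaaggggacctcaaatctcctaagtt
Krt13, chr11:100121567-100121816, minus strand: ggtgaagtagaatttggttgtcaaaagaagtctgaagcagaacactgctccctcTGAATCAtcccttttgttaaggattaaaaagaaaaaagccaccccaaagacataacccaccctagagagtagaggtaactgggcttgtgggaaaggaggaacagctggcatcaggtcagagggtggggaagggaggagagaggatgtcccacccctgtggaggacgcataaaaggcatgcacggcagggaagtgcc
Krt12, chr11:99422260-99422509, minus strand: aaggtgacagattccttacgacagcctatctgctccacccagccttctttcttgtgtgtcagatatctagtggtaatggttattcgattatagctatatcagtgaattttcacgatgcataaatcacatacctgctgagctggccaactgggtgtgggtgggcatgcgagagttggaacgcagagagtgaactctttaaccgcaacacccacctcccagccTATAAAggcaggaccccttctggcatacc
Krt18, chr15:102027966-102028215, plus strand: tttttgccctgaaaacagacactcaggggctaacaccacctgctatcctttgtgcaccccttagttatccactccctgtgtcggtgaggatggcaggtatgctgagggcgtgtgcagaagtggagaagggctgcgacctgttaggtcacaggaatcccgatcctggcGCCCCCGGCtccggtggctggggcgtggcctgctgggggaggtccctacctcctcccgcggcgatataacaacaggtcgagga
The Krt12 promoter has TATAAA at base -29 from the start, the Krt13 promoter TGANTCA at -196, and the Krt18 promoter GCCNNNGGC at -83, while the Krt5 window has none of the 3. Of 36 keratin starts, 17 hold TATAAA, against 12.4% of all 32851 promoters of this length. TGANTCA is in 2 of the 36, both of them Krt13 starts, against 6.75% of all, and GCCNNNGGC is in 4, against 13.7%. A match describes the sequence and shows no binding.

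Keratin reads were a small part of EOM RNA and varied widely between EOM libraries of the same genotype. Summed over the 52 members, the level was 1110, 438, 116.1 and 1852 CPM in the albino EOM libraries (labelled EOM 3, EOM 4, CN3 3 and CN3 4), and 213, 1130, 610 and 1401 CPM in C57BL/6 EOM libraries 1 to 4. The 2 groups overlapped throughout, the highest and the lowest of the 8 libraries were both albino, and the ratio of highest to lowest was 16 in albino EOM and 6.58 in C57BL/6 EOM. These sums are 2512 to 39539 reads in albino EOM and 5207 to 30542 reads in C57BL/6 EOM, at most 0.185% of a library. Of the 8, the library labelled albino CN3 4 was highest for 14 of the 23 members and the library labelled albino CN3 3 lowest for 12. Both extremes were libraries whose label names another tissue. The libraries labelled albino EOM 3 and 4 both lay within the range of the C57BL/6 libraries.

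**Figure D1:**
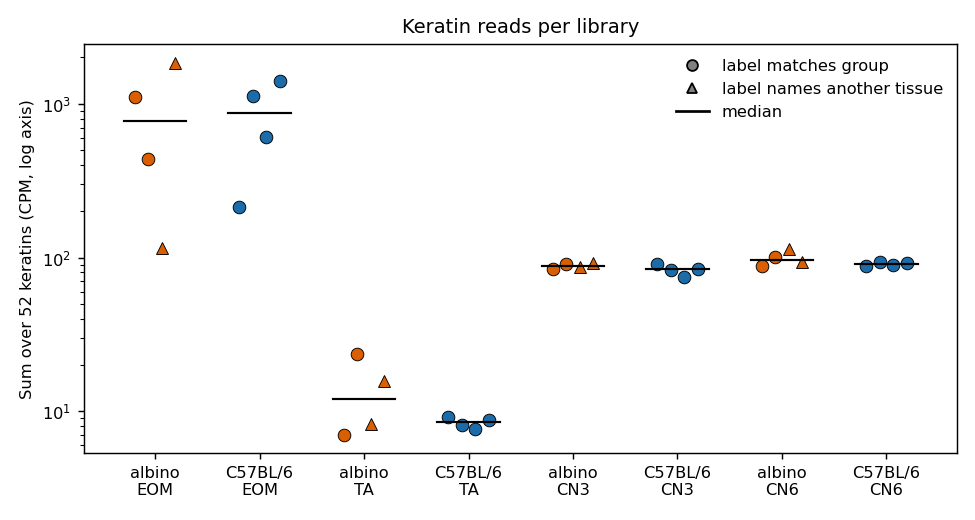
Summed CPM of 52 keratins (log axis) in each of 32 libraries by group, with the median as a line; triangles are libraries whose label names another tissue. The EOM groups spread from 116.1 to 1852 CPM, while each CN3 and CN6 group stays between 74.6 and 114.1 CPM and TA at most 23.7 CPM.

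Other tissues were lower and more even. The lowest, median and highest sums were 7.04, 12.0 and 23.7 CPM in albino TA and 7.62, 8.47 and 9.16 CPM in C57BL/6 TA. They were 84.7, 88.5 and 91.5 CPM in albino CN3, 74.6, 84.0 and 91.3 CPM in C57BL/6 CN3, 88.8, 97.0 and 114.1 CPM in albino CN6, and 88.3, 90.5 and 93.5 CPM in C57BL/6 CN6. Most of the brain sum is Krt222, treated separately below, so the sum is not an epithelial measure there.

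Basal-layer keratins led in EOM. Krt15, a type I keratin of basal cells, the corneal limbus and the hair bulge, had 274, 147, 6.52 and 680 CPM in the albino libraries labelled EOM 3, EOM 4, CN3 3 and CN3 4, and 59.5, 352, 225 and 460 CPM in C57BL/6 EOM 1 to 4. Its partner Krt5 had 234, 90.4, 11 and 388 CPM in those albino libraries and 42.3, 286, 139 and 356 CPM in the C57BL/6 libraries. Krt14, the other basal type I keratin, had 26.8, 8.28, 0.786 and 54.8 CPM in albino EOM and 6.18, 34.8, 18.2 and 48.1 CPM in C57BL/6 EOM. All 3 ranked the 8 libraries identically, from the library labelled albino CN3 4 down through C57BL/6 EOM 4 and 2, albino EOM 3, C57BL/6 EOM 3, albino EOM 4 and C57BL/6 EOM 1 to the library labelled albino CN3 3, with the genotypes interleaved. Per kilobase of exon, Krt15 averaged 157 CPM in albino EOM and 155 CPM in C57BL/6 EOM, Krt5 82.3 and 93.7 CPM, and Krt14 12.9 and 15.3 CPM, so the level of Krt14 was far below that of Krt15.

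Keratins of wound-activated, oral and appendage epithelium came next. Krt6b had 107, 42.9, 13.7 and 171 CPM in albino EOM and 18.0, 88.9, 43.6 and 105 CPM in C57BL/6 EOM. Krt6a had 86.8, 32.9, 8.37 and 127 CPM in albino EOM and 14.4, 88.1, 38.1 and 109 CPM in C57BL/6 EOM, in the same order of libraries as Krt15. The pair are close paralogs whose reads may be split uncertainly between them, and their ratio (Krt6a over Krt6b) stayed within 0.609 and 1.04. Krt17, a type I keratin of appendages and activated epidermis, had 1.65, 1.54, 0.739 and 5.76 CPM in albino EOM and 0.245, 4.10, 2.78 and 6.61 CPM in C57BL/6 EOM, with overlap. Its lowest library was C57BL/6 EOM 1.

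**Figure D2:**
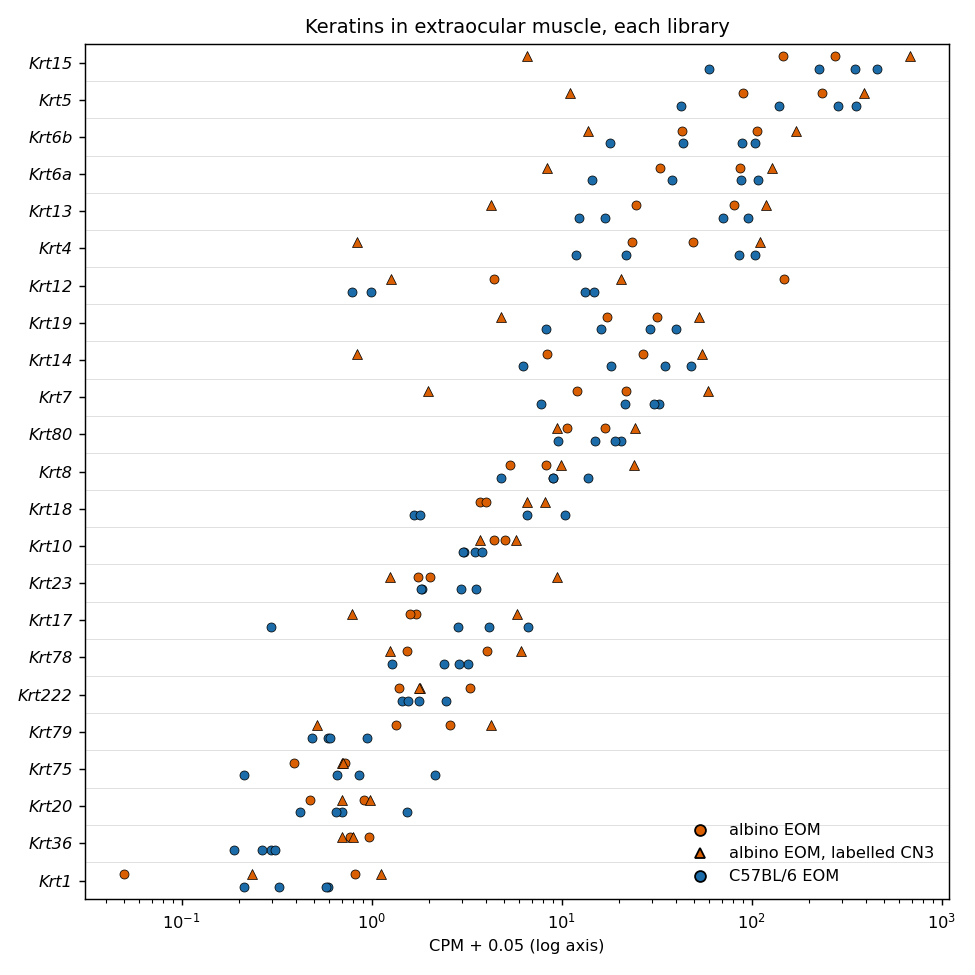
Level (CPM + 0.05, log axis) of the 23 described keratins in each EOM library, albino above C57BL/6 in each row, ordered by mean level. The genotypes overlap in every row but Krt36, where the 4 albino libraries (0.647 to 0.915 CPM) lie above the C57BL/6 libraries (0.138 to 0.261 CPM).

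Mucosal keratins were also present. Krt13 had 81.0, 24.6, 4.21 and 119 CPM in albino EOM and 12.2, 70.5, 17 and 95.7 CPM in C57BL/6 EOM. Krt4, its type II partner, had 49.3, 23.5, 0.786 and 111 CPM in albino EOM and 11.9, 85.5, 21.7 and 105 CPM in C57BL/6 EOM. Both were again highest in the library labelled albino CN3 4 and lowest in that labelled albino CN3 3. The genotypes overlapped. Within a library, Krt13 over Krt4 ranged 6.83-fold over the 8 EOM libraries and Krt13 over Krt15 8.55-fold, while Krt4 over Krt15 ranged 2.52-fold, Krt5 over Krt15 2.98-fold and Krt14 over Krt5 2.05-fold. Krt15 alone ranged 104-fold.

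Krt12, the keratin of the corneal epithelium, followed another order. It had 148, 4.33, 20.4 and 1.22 CPM in albino EOM and 0.941, 13.2, 14.8 and 0.734 CPM in C57BL/6 EOM. The library labelled albino EOM 3 stood above all others, the 2 libraries highest for Krt15 were low, and Krt12 over Krt15 ran from 0.0016 to 3.13, a 1960-fold range. Aldh3a1, an enzyme abundant in corneal epithelium but not restricted to it, did not share this order: 139, 54.0, 11.3 and 253 CPM in albino EOM and 35.5, 139, 110 and 149 CPM in C57BL/6 EOM. In brain, Krt12 reached 2.37 CPM in albino CN3 and 3.58 CPM in C57BL/6 CN3, above the lowest EOM libraries. It was at most 0.652 CPM in albino CN6 and 0.176 CPM in C57BL/6 CN6. The CN3 medians were lower, at 0.670 CPM in albino and 0.535 CPM in C57BL/6 libraries. TA had at most 0.924 CPM in albino and 0.0866 CPM in C57BL/6 libraries. What low Krt12 levels in EOM stand for was not tested. Krt12 overlaps A830036E02Rik on the opposite strand. The strand setting of the counting is not given in the sources used here, so reads of the 2 cannot be told apart. The same holds for Krt5, Krt6a, Krt6b, Krt7, Krt8, Krt10, Krt75 and Krt80, each of which overlaps an annotated gene on the other strand.

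Keratins of simple epithelia were lower and mixed in order. Krt19 had 31.5, 17.2, 4.76 and 52.7 CPM in albino EOM and 8.22, 29.2, 16.1 and 39.9 CPM in C57BL/6 EOM. Krt7, of gland ducts and conjunctiva, had 21.7, 11.9, 1.94 and 58.6 CPM in albino EOM and 7.77, 32.6, 21.6 and 30.6 CPM in C57BL/6 EOM, in the basal order but for an exchange of C57BL/6 EOM 2 and 4. The pair Krt8 and Krt18 did not follow it. Krt8 had 8.22, 5.30, 9.89 and 24.0 CPM in albino EOM and 4.74, 9.01, 13.7 and 8.95 CPM in C57BL/6 EOM, and Krt18 had 3.69, 3.95, 6.52 and 8.15 CPM in albino EOM and 6.54, 1.62, 10.4 and 1.74 CPM in C57BL/6 EOM. Krt18 was lowest in C57BL/6 EOM 2 and 4, which ranked just behind the highest library by summed keratins, and highest in C57BL/6 EOM 3. The minor Krt23 had 1.70, 1.98, 1.2 and 9.37 CPM in albino EOM and 1.80, 1.78, 2.91 and 3.49 CPM in C57BL/6 EOM, and stood out in the library labelled albino CN3 4. Krt20, known from the gut lining, had 0.424, 0.867, 0.647 and 0.937 CPM in albino EOM and 0.368, 0.647, 1.48 and 0.596 CPM in C57BL/6 EOM, with overlap.

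Keratins of the upper epidermis were few. Krt80, found in many differentiated epithelia, had 16.8, 10.6, 9.38 and 24.3 CPM in albino EOM and 9.53, 20.4, 15 and 19.0 CPM in C57BL/6 EOM, a 2.59-fold range. Krt10, the main type I keratin of cornifying skin, had 5, 4.33, 5.68 and 3.65 CPM in albino EOM and 3.44, 3.77, 3.00 and 2.98 CPM in C57BL/6 EOM. Only the library labelled albino CN3 4 lay within the C57BL/6 values. Krt10 was also 1.68 to 5.94 CPM in albino TA and 2.16 to 3.00 CPM in C57BL/6 TA, so its level is not particular to EOM. Krt1, the partner of Krt10, had 0.763, 0, 0.185 and 1.08 CPM in albino EOM and 0.164, 0.539, 0.522 and 0.275 CPM in C57BL/6 EOM. Krt78 had 3.98, 1.49, 1.2 and 6.09 CPM in albino EOM and 1.23, 3.18, 2.35 and 2.84 CPM in C57BL/6 EOM. Krt75, of the hair follicle's companion layer, had 0.339, 0.674, 0.647 and 0.656 CPM in albino EOM and 0.164, 0.809, 0.609 and 2.11 CPM in C57BL/6 EOM. The genotypes overlapped for each of these genes. Lor and Ivl, which encode proteins of the cornified envelope, were at most 0.0924 and 0.281 CPM in albino EOM and 0.164 and 0.367 CPM in C57BL/6 EOM. The 6 listed genes of cornified epidermis, Lor and Ivl included, summed to 3.47 to 7.59 CPM in albino EOM and 3.68 to 5.61 CPM in C57BL/6 EOM. Their sum was 1.53 to 5.05 CPM in albino TA and 1.79 to 2.92 CPM in C57BL/6 TA. Hoxc13, a hair follicle regulator, had no read in any EOM library. The 5 listed hair follicle genes, Hoxc13 included, summed to 0.647 to 1.64 CPM in albino EOM and 0.491 to 1.46 CPM in C57BL/6 EOM.

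**Figure D3:**
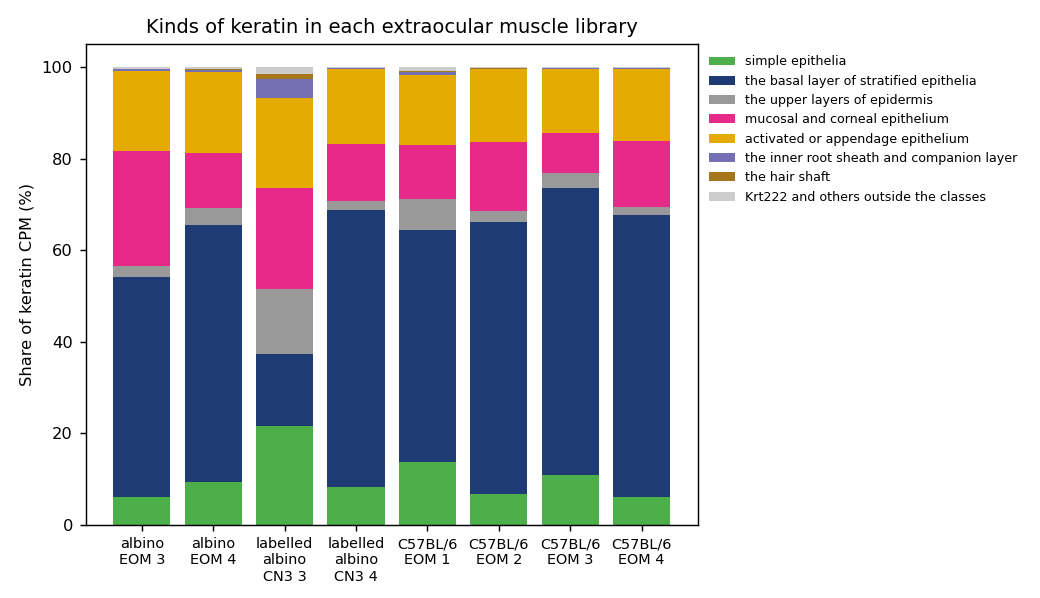
Share of keratin CPM (%) by kind of keratin in each of 8 EOM libraries, albino left of C57BL/6. Basal-layer keratins make 50.7% to 62.6% of the C57BL/6 libraries and 15.8% of the library labelled albino CN3 3.

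The composition of 1 library differed. Basal-layer keratins were 48.1%, 56.1%, 15.8% and 60.6% of keratin reads in the albino libraries labelled EOM 3, EOM 4, CN3 3 and CN3 4, and 50.7% to 62.6% in C57BL/6 EOM. In the library labelled albino CN3 3, mucosal and corneal keratins were 21.9%, simple-epithelial keratins 21.5% and upper-epidermal keratins 14.3%. Type I keratins per kilobase exceeded type II in all 8 libraries, with a ratio of 1.25 to 1.42 in albino EOM and 1.11 to 1.45 in C57BL/6 EOM, including the library with the odd composition.

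Whether keratins differed by genotype in EOM was tested with edgeR's quasi-likelihood test. Of 15019 genes tested, 38.9% were called at an adjusted p under 0.05, 17.8% higher and 21.2% lower in albino EOM (3502 higher and 2668 lower with upper quartile scaling, against 2669 and 3179). Of the 23 keratins tested, 2 were called, both higher, and 0 lower. Krt17, Krt36 and Krt79 passed the filter on low counts through the albino libraries, so for Krt36 and Krt79 that passage favours a difference. The median log2 difference was 0.15 over the 23 keratins and 0.01 over all genes tested.

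The major epithelial keratins did not pass. Krt15 differed by -0.04 ± 0.94 on the log2 scale (standard error, adjusted p = 0.979 by edgeR), Krt5 by -0.24 ± 0.85 (adjusted p = 0.854) and Krt14 by -0.29 ± 0.88 (adjusted p = 0.825). Krt13 differed by 0.17 ± 0.87 and Krt4 by -0.33 ± 0.97 (adjusted p = 0.896 and 0.816 by edgeR). These standard errors are large, so a difference of several fold in either direction is not resolved. With the albino libraries whose label matches, Krt15 differed by -0.38 and Krt5 by -0.35 (adjusted p = 0.686 and 0.745 by edgeR), and with those whose label differs by 0.24 and -0.12 (adjusted p = 0.916 and 0.951 by edgeR). Krt12 differed by 2.58 ± 1.32 (adjusted p = 0.151 by edgeR), and by 0.29 without the library labelled albino EOM 3 (adjusted p = 0.87). Krt80, with a narrower error, differed by -0.08 ± 0.31 (adjusted p = 0.86 by edgeR), Krt8 by 0.37 ± 0.43 (adjusted p = 0.54) and Krt18 by 0.15 ± 0.54 (adjusted p = 0.857).

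**Figure D4:**
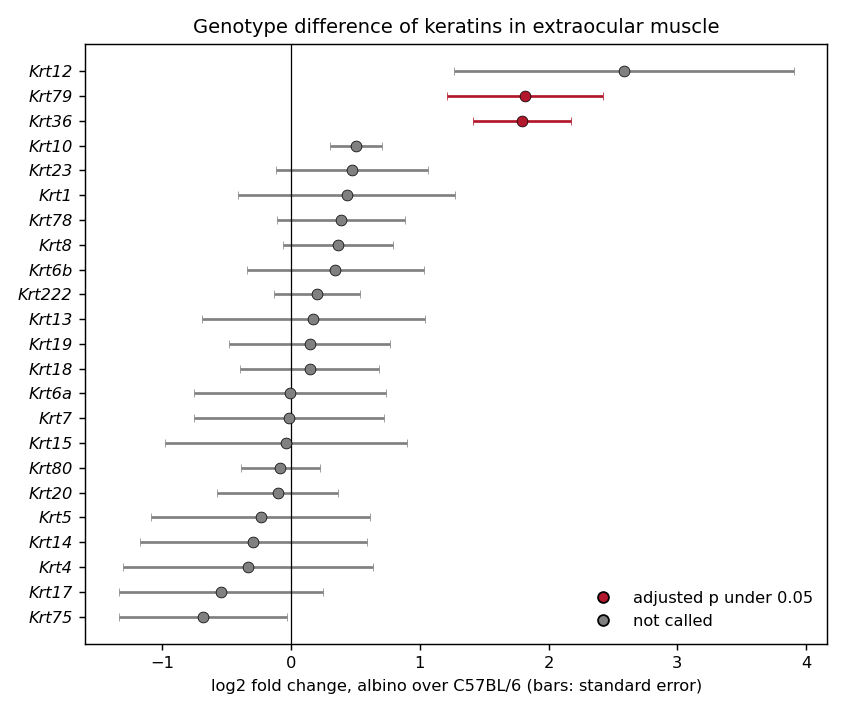
Log2 fold change, albino over C57BL/6, of the 23 tested keratins in EOM with the standard error. Krt36 and Krt79 (red) passed the adjusted p threshold of 0.05, and the bars of Krt15, Krt5, Krt4 and Krt13 cross 0 widely.

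Krt36, a hair-type keratin known from the tongue, had 17, 19, 14 and 16 reads in the albino libraries labelled EOM 3, EOM 4, CN3 3 and CN3 4, and 6, 4, 6 and 3 reads in C57BL/6 EOM 1 to 4. It averaged 0.758 ± 0.113 CPM in albino EOM and 0.215 ± 0.0549 CPM in C57BL/6 EOM (SD, n = 4 each), without overlap. The log2 difference was 1.79 ± 0.38 (adjusted p = 0.00464 by edgeR). Of all genes tested, 18.4% had all 4 albino EOM libraries above all 4 C57BL/6 ones and 20.3% had them below, so a gene of this kind is common here. With the 2 libraries whose label matches the adjusted p was 0.0285, and with the 2 whose label differs it was 0.0669 (log2 differences 1.91 and 1.66).

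Krt79, known in mouse from the ducts of sebaceous glands and the hair canal, had 2.54, 1.30, 4.21 and 0.468 CPM in those albino libraries and 0.900, 0.539, 0.435 and 0.551 CPM in C57BL/6 EOM 1 to 4. Of these, the library labelled albino CN3 4 lay within the C57BL/6 values. The log2 difference was 1.82 ± 0.60 (adjusted p = 0.0369 by edgeR). The call was lost without C57BL/6 EOM 2, C57BL/6 EOM 3, C57BL/6 EOM 4, the library labelled albino CN3 3 or the library labelled albino EOM 3 (adjusted p = 0.0793 or above). Without the library labelled albino CN3 3 the difference was 1.23 (adjusted p = 0.12). With the albino libraries whose label matches it was 1.66 (adjusted p = 0.0278), and with those whose label differs 1.96 (adjusted p = 0.098). Krt10 differed by 0.51 ± 0.20 (adjusted p = 0.0725 by edgeR) and was called without the library labelled albino CN3 4 (adjusted p = 0.0275).

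Keratins were spread widely within a genotype. The standard deviation of log2(CPM + 0.5) within a genotype had a median of 0.912 over the 23 tested keratins, against 0.17 over all 15019 genes tested, of which 90% were below 0.464. Krt12 (2.42), Krt4 (2.25) and Krt15 (2.22) had the highest values of the 23, while Krt36 (0.121) lay below the median of all genes.

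Epithelial genes other than keratins ranked the libraries much as the basal keratins did. The summed level of 12 pan-epithelial genes (among them Epcam and Cdh1, cell adhesion, and Perp and Dsp, desmosomes) was 159, 84.5, 43.9 and 364 CPM in the albino libraries labelled EOM 3, EOM 4, CN3 3 and CN3 4 and 66.6, 258, 190 and 315 CPM in C57BL/6 EOM 1 to 4. This order is that of the summed keratins but for an exchange of albino EOM 3 and C57BL/6 EOM 3. Both sums come from the same libraries, so the likeness is a description over 8 libraries. None of the 12 was called by genotype in EOM (0 higher, 0 lower by edgeR), where 38.9% of all genes were. Of 6 genes of basal stratified epithelium, against 17.8% of all genes higher and 21.2% lower, 1 was higher (Itgb4, 0.29 ± 0.09, adjusted p = 0.0311 by edgeR) and 1 lower (Trp63, -0.78 ± 0.28, adjusted p = 0.0484 by edgeR). Itgb4 was also 4.16 to 8.48 CPM and Trp63 4.08 to 7.20 CPM in TA libraries that had little keratin.

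Mucosal and glandular markers differed between libraries. Muc5ac, the secreted mucin of conjunctival goblet cells, had 2.59, 5.83, 1.94 and 75.8 CPM in albino EOM and 2.00, 22.4, 47.6 and 7.34 CPM in C57BL/6 EOM. Its highest libraries, labelled albino CN3 4 and C57BL/6 EOM 3, are also the 2 highest for Krt8 and Krt18. The sum of the 6 listed mucosal genes (Muc5ac, Muc4, Spdef, Agr2, Krt4 and Krt13) followed another order. It ran from the library labelled albino CN3 4 through C57BL/6 EOM 4 and 2 to C57BL/6 EOM 3. Foxj1, a regulator of motile cilia, had 0.932, 2.07, 0.462 and 1.97 CPM in albino EOM and 1.96, 0.539, 2.83 and 0.551 CPM in C57BL/6 EOM. It was low in C57BL/6 EOM 2 and 4, as Krt18 was, but lowest in the library labelled albino CN3 3. Krt18 in that library was above its level in C57BL/6 EOM 2 and 4.

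The gland list (Elovl3, Awat2, Far2, Mc5r and Dgat2l6, lipid enzymes and a receptor of sebaceous, Meibomian and Harderian glands) ranked the same 2 libraries first as Krt79. Its sum was 24.5, 5.73, 61.4 and 10.5 CPM in the albino libraries labelled EOM 3, EOM 4, CN3 3 and CN3 4 and 13.7, 9.38, 7.22 and 4.86 CPM in C57BL/6 EOM 1 to 4. The library labelled albino CN3 3, lowest for Krt15, was highest for this list and for Krt79, with Elovl3 at 36.2 CPM and Dgat2l6 at 11.6 CPM, and albino EOM 3 was second for both. Of the 5 genes, 1 was called higher in albino EOM (Awat2, 2.74 ± 0.79, adjusted p = 0.0204 by edgeR) and 0 lower, near the 17.8% of all genes called higher. Below the first 2 libraries the orders parted: albino EOM 4 came next for Krt79, but only C57BL/6 EOM 4 was below it for the list. In brain the list summed to 17.1 to 21.5 CPM in albino CN3 and 17.6 to 22.8 CPM in C57BL/6 CN3. It was 13.4 to 16.8 CPM in albino CN6 and 13.8 to 16.7 CPM in C57BL/6 CN6. The list is therefore not particular to glands. In TA the list summed to 3.60 to 4.16 CPM in albino and 2.34 to 3.72 CPM in C57BL/6 libraries, below every EOM library. What EOM sums at or below the brain levels measure was not tested. The part of glands in the Krt79 difference was not tested.

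Signs of other tissues also differed between libraries. The library labelled albino EOM 3, highest for Krt12, had Snap25, a synaptic gene, at 56.9 CPM and Gh, pituitary growth hormone, at 9.75 CPM. The other albino EOM libraries had Snap25 at 7.71 to 12.7 CPM and Gh at 0.375 to 1.85 CPM, and C57BL/6 EOM had Snap25 at 5.87 to 34.2 CPM and no read of Gh. Their part in the Krt12 level was not tested. Ckm, the muscle creatine kinase, was 5320 to 5806 CPM in albino EOM and 4279 to 4826 CPM in C57BL/6 EOM.

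**Figure D5:**
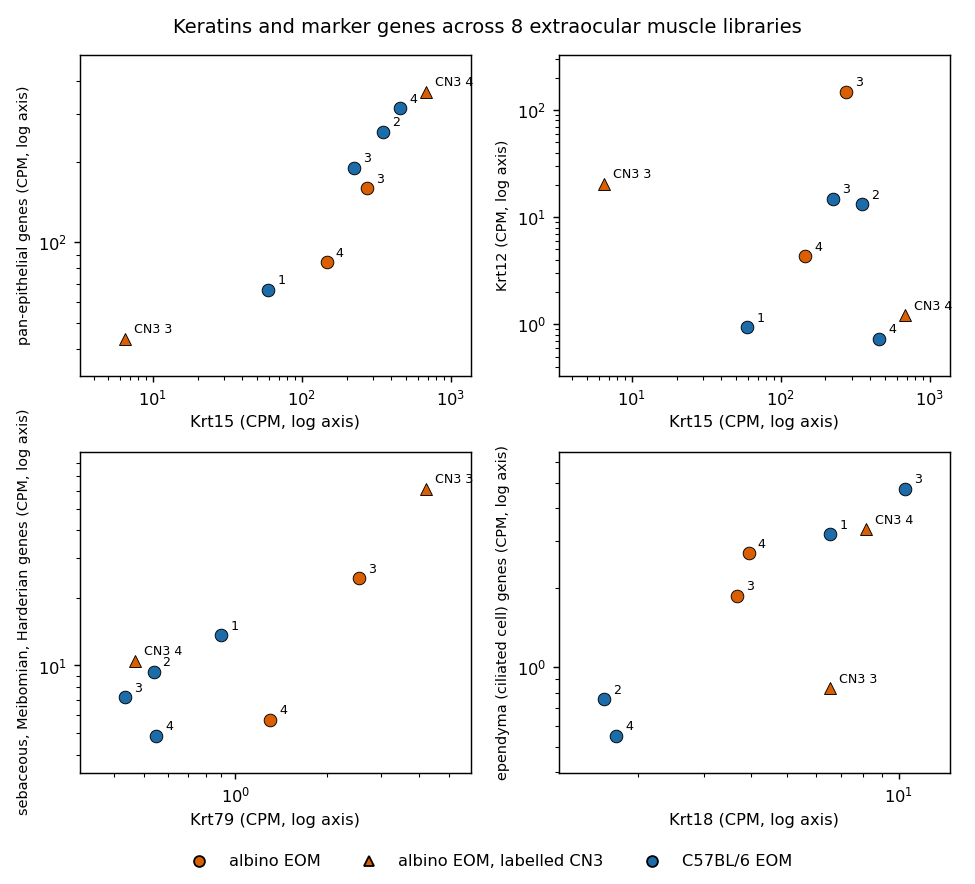
Levels in 8 EOM libraries (CPM, both axes log), each point a library with its number, triangles labelled CN3: Krt15 with the sum of 12 pan-epithelial genes, Krt15 with Krt12, Krt79 with the gland list, and Krt18 with a list of ciliated-cell (ependyma) genes. Points of the first panel run from lower left to upper right, and in the second the library labelled albino EOM 3 has 148 CPM of Krt12 at a middle level of Krt15.

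Keratins separated EOM from TA by orders of magnitude. In C57BL/6 mice Krt5 had 17288 reads in 4 EOM libraries and 12 in 4 TA libraries, a 1680-fold higher CPM, and Krt15 was 574-fold higher. Krt6a, Krt14 and Krt8 had no read in any C57BL/6 TA library, so they were at least 2030-fold, 878-fold and 308-fold higher (against 3 counts over the group, 0.0294 CPM). Krt80 was 37.1-fold higher, Krt19 115-fold and Krt18 24.6-fold. Krt8 and Krt19, the keratins also known from muscle fibres, were thus 0 and 0.0866 to 0.320 CPM in C57BL/6 TA. In albino TA they were 0 to 0.336 CPM and 0.303 to 0.840 CPM.

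Of 18 keratins tested between C57BL/6 EOM and TA, 16 were called higher and 1 lower in EOM by edgeR, where 77.2% of 14408 genes were called (42.3% higher, 35.0% lower). The 16 passed the filter through EOM, so the count describes them and tests nothing. The 1 lower was Krt222 (-1.79 ± 0.21, adjusted p = 8.66e-06 by edgeR), and Krt10 was not called (-0.36 ± 0.19, adjusted p = 0.1 by edgeR). In albino mice 16 of 20 were higher and 1 lower, where 68.3% of genes were called (36.6% higher, 31.7% lower), and 17 of the 20 passed the filter through EOM alone. With the labels as given, 0 were called, since each albino muscle group then mixes muscle and brain. All 12 pan-epithelial genes were higher in EOM in each genotype, but 10 of them in albino and 11 in C57BL/6 mice passed the filter through EOM alone, so this count too is a description.

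TA itself held traces of keratin, more in 2 albino libraries. Of these, the library labelled albino TA 4 had the highest TA sum (23.7 CPM), with Krt14 at 1.94, Krt15 at 1.86, Krt1 at 0.809 and Krt77 at 1.5 CPM, and Lor at 0.404 CPM where the other TA libraries had no read of Lor. In the library labelled albino CN6 4, Krt5 was at 2.77 and Krt15 at 1.93 CPM with Myh13 at 94.0 and Myh15 at 13.7 CPM. The other 7 TA libraries had at most 34.8 CPM of Myh13 and 1.47 CPM of Myh15. The part of these tissues in the TA comparisons was not tested.

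Between genotypes in TA, 33.7% of 12956 genes were called (16.6% higher, 17% lower), and 2 of 4 tested keratins, 1 higher and 1 lower. Upper quartile scaling gave 2658 genes higher and 1748 lower, against 2154 and 2207. Krt80 passed the filter on low counts through the albino libraries. Krt80 had 1.06, 2.31, 0.579 and 1.30 CPM in the albino libraries labelled TA 3, TA 4, CN6 3 and CN6 4 and 0.400, 0.537, 0.390 and 0.358 CPM in C57BL/6 TA 1 to 4. The groups did not overlap, though the lowest albino library was close to the highest C57BL/6 one (log2 difference 1.66 ± 0.41, adjusted p = 0.00739 by edgeR). Krt222 had 2.27, 2.35, 2.11 and 2.94 CPM in albino TA and 3.84, 3.76, 3.77 and 3.90 CPM in C57BL/6 TA, without overlap (-0.64 ± 0.17, adjusted p = 0.0128 by edgeR). Of all genes tested in TA, 12.5% had all albino libraries above all C57BL/6 libraries and 17.3% had them below. Both calls were kept in each of the 8 fits without 1 library. With only the albino libraries whose label differs, neither was called and Krt19 was. Krt10 and Krt15 did not pass (adjusted p = 0.265 and 0.403 by edgeR).

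The genotype difference of Krt80 was smaller in EOM than in TA by 1.70 ± 0.55 on the log2 scale, albino minus C57BL/6 in EOM minus the same in TA, written as -1.70 (adjusted p = 0.0498 by edgeR). It was the 1 call among 23 keratins tested, where 13% of 15267 genes were called (5.54% higher, 7.48% lower). With DESeq2 size factors 515 genes were higher and 1352 lower, against 846 and 1142. The call held without C57BL/6 EOM 1, the library labelled albino CN6 3 or the library labelled albino CN3 4, and was lost without any 1 of the other 13 libraries (adjusted p up to 0.129).

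In the brain samples the family was represented mainly by Krt222, a keratin-related gene at the edge of the type I cluster. It had 62.3 to 73.9 CPM in albino CN3, 54.6 to 71.4 CPM in C57BL/6 CN3, 70.3 to 84.4 CPM in albino CN6 and 71.5 to 76.5 CPM in C57BL/6 CN6, while EOM had 3.26, 1.35, 1.76 and 1.73 CPM in albino and 1.72, 2.43, 1.39 and 1.51 CPM in C57BL/6 libraries. The genotypes overlapped in both regions. Its log2 genotype difference was 0.10 ± 0.09 in CN3 (adjusted p = 0.632 by edgeR) and 0.07 ± 0.06 in CN6 (adjusted p = 0.665 by edgeR). C57BL/6 EOM was lower than C57BL/6 CN3 by 4.87 ± 0.17 on the log2 scale, written as -4.87 (adjusted p = 1.56e-09 by edgeR), and than C57BL/6 CN6 by 5.10 ± 0.13, written as -5.10 (adjusted p = 6.75e-11 by edgeR).

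Epidermal keratins without a basal partner were the next in brain. Krt1 was 5.37 to 7.17 CPM in albino CN3, 4.92 to 9.01 CPM in C57BL/6 CN3, 3.97 to 5.41 CPM in albino CN6 and 3.86 to 5.05 CPM in C57BL/6 CN6. Krt10 was 3.18 to 4.52 CPM in albino CN3, 3.53 to 4.06 CPM in C57BL/6 CN3, 3.33 to 4.72 CPM in albino CN6 and 3.69 to 4.68 CPM in C57BL/6 CN6. Krt5 had no read in 15 of the 16 brain libraries and 0.0548 CPM in C57BL/6 CN6 3. Of 23 keratins tested in C57BL/6 mice, 18 were higher and 4 lower in EOM than in CN3, where 84.5% of 16142 genes were called (40.9% higher, 43.6% lower). Against CN6, 17 were higher and 5 lower, where 86.0% of 16175 genes were called (41.8% higher, 44.2% lower). Most of these passed the filter through 1 tissue, so the counts are a description. Besides Krt222, the lower ones were Krt1, Krt9 and Krt77 in both, and Krt25 against CN6.

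No keratin was called by genotype in CN3 (0 of 13, where 0.283% of 15880 genes were called, 0.208% higher and 0.0756% lower) or CN6 (0 of 9, where 0.12% of 15879 were, 0.0882% higher and 0.0315% lower) by edgeR. At an unadjusted p under 0.05 there were 3 in CN3 and 1 in CN6, and DESeq2 called 1 in each. Krt73, an inner root sheath keratin of the hair follicle that DESeq2 called in CN3, was 1.21 to 1.90 CPM in albino CN3 and 0.0904 to 0.588 CPM in C57BL/6 CN3 (2.17 ± 0.49, adjusted p = 0.104 by edgeR), and it passed the filter through the albino libraries alone. Krt9, the keratin of footpad skin, which DESeq2 called in CN6, was 0.817 to 1.43 CPM in albino CN6 and 2.17 to 3.50 CPM in C57BL/6 CN6 (-1.23 ± 0.26, adjusted p = 0.176 by edgeR). Neither pair of groups overlapped. Of all genes tested, 4.54% in CN3 had all albino libraries above and 5.78% below, and in CN6 3.5% had them above and 2.83% below.

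Krt8 and Krt18 stood above a trace in 1 brain library. In albino CN6, the library labelled albino TA 1 had 15.3 CPM of Krt18 and 5.17 CPM of Krt8, where the other 3 had at most 0.586 and 0.598 CPM. The same library had Ttr at 7700, Kl at 304, Clic6 at 154, Kcnj13 at 54.0 and Folr1 at 50.1 CPM, genes of the choroid plexus, the simple epithelium that makes cerebrospinal fluid. The other albino CN6 libraries had Ttr at 3.26 to 23.4 CPM and C57BL/6 CN6 had 19.4 to 174 CPM. The genotype differences in CN6 were 2.48 ± 1.13 for Krt18 and 1.69 ± 0.92 for Krt8, neither called (adjusted p = 0.393 and 0.463 by edgeR). The part of choroid plexus in them was not tested.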

How the data were processed

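RNA of 4 tissues and 2 genotypes was sequenced in 32 libraries. The authors deposited 1 table of unnormalized read counts, a row for each gene symbol. Tools named in the submitters' processing notes are HISAT2 2.1.0, featureCounts, Trimmomatic 0.33, FastQC and edgeR, with build mm10; annotation, strand setting and filter are not given in the sources used here. Per the labels' protocols, RNeasy kits for fibrous (muscle) or lipid-rich tissue gave the RNA.

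Counts were tested per tissue with edgeR 4.0.16 in R 4.3.3 (filterByExpr, TMM, quasi-likelihood F test, Benjamini-Hochberg adjustment over all genes tested, called under 0.05), after a check on simulated data. Groups follow tissue markers where 8 albino labels contradict them. CPM uses deposited totals, and ranges of reads give the depth. Values after ± are standard errors of the edgeR fit, which include the spread between libraries, or, where marked SD, standard deviations over the libraries of a group. Lengths and positions are GENCODE, promoters RefSeq. Described keratins had a mean of at least 0.5 CPM in EOM of a genotype, were called there, or were 1 of 7 partner or site-restricted keratins. Members, lists and groups were chosen with earlier results of these data known. Alternatives were other scalings, filters, DESeq2 1.42.0, a replicate block, label subsets, all libraries in 1 fit, and each library left out. Same-numbered libraries were not taken as pairs: deviations of C57BL/6 EOM and TA correlated at most at 0.0735, and between genotypes no tissue had every correlation over 0.1. In albino muscle, libraries labelled CN3 3 and CN6 3 correlated at 0.161, EOM 3 and TA 3 at 0.154, CN3 4 and CN6 4 at 0.0965, and EOM 4 and TA 4 at 0.0891. Other same-numbered ones reached 0.0502, and differently numbered ones -0.135 to 0.113. Whether such libraries share an animal is not given, and the albino EOM against TA and interaction tests use no pairing.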

Additional observations from a re-analysis of the deposited data

Results flagged for a closer look

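A single library stood apart from the other 3 of its group for 6 of the 80 keratin and group pairs examined. The measure was the gap to its nearest neighbour over the group's range. Chance gives such a gap in about 1 of 20 groups of normally distributed values, and skewed levels such as these CPM can give it more often. In albino EOM, Krt12 was highest in the library labelled albino EOM 3 (148 CPM), Krt23 was highest in that labelled albino CN3 4 (9.37 CPM), and Krt75 was lowest in that labelled albino EOM 3 (0.339 CPM). In albino CN6, Krt18 (15.3 CPM) and Krt8 (5.17 CPM) were highest in the library labelled albino TA 1, the one rich in choroid plexus genes. In C57BL/6 CN3, Krt8 was highest in library 1 (0.424 CPM), a trace. Krt12 in C57BL/6 CN3, not among these 6, also had a single library far above the rest (3.58 CPM, group median 0.535 CPM).

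Krt80 differed between muscles in its genotype difference (-1.70 on the log2 scale, EOM minus TA, adjusted p = 0.0498 by edgeR), by a test of the difference itself without pairing of libraries.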

How the results depend on the processing

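Of the 2 keratins called by genotype in EOM, 0 were called when 4 libraries had to reach 1 CPM (Krt36 and Krt79 were then not tested), 1 by DESeq2 (which gave Krt36 no adjusted p), 0 with only the albino libraries whose label differs and 0 with labels as given; over all genes the counts there were 5971, 6239, 3457 and 1, against 5848. With all 32 libraries in 1 fit 3 were called, Krt36 with Krt10 and Krt12 but not Krt79 (adjusted p = 0.0627; 6872 genes). The 2 calls in TA became 6 without a filter, 1 with the CPM filter, 1 with libraries whose label differs (Krt19; 2677 genes against 4361) and 0 as labelled (18 genes). DESeq2 called 1 keratin in CN3 and 1 in CN6, against 0, among 599 and 189 genes against 45 and 19; label-matching libraries gave 13 and 4 genes, label-differing ones 6 and 12, labels as given 0 and 0. In albino EOM against TA, 0 were called as labelled (0 genes; 5750 with label-differing libraries, against 9852), against 17. Upper quartile factors moved the median log2 of all genes, EOM over TA, to 0.21 in C57BL/6 (0.10 with TMM) and 0.22 in albino (0.06). The interaction gave 2 calls by DESeq2, 0 with libraries whose label differs and 0 as labelled, against 1; genes were 588 and 33 there, 1211 with label-matching libraries and 1988 in the fit reported.

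With the replicate block, 0 keratins were called in EOM and 1 in TA (3144 and 2895 genes, against 5848 and 4361), and 30 and 3 genes in CN3 and CN6. The albino libraries are numbered 3 or 4 in muscle and 1 or 2 in brain. C57BL/6 libraries with other numbers therefore do not inform the genotype difference in these fits per tissue. Deviations of same-numbered albino and C57BL/6 libraries correlated at -0.242 to 0.101 in EOM and -0.0387 to 0.0306 in TA, -0.244 to 0.31 in CN3 and -0.244 to 0.0239 in CN6, so the numbers are not taken to pair libraries, and calls lost under the block are not read as weaker effects. Leaving out 1 library gave 1 to 3 calls in EOM, 2 to 3 in TA, 0 to 1 for the interaction, 0 in CN3 and CN6 (20 to 210 and 6 to 35 genes), 16 to 20 for EOM against TA and 22 to 24 against CN3 or CN6 in C57BL/6, and 18 to 21 for albino EOM against TA.

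On TMM effective sizes the median keratin sums were 21.2 CPM in albino TA, 13.7 in C57BL/6 TA, 67.8 in albino CN3, 65.4 in C57BL/6 CN3, 76.2 in albino CN6 and 72.5 in C57BL/6 CN6. Without Krt222, Krt10 and Krt18 they were 6.60 in albino TA, 1.78 in C57BL/6 TA, 14.6 in albino CN3, 15.6 in C57BL/6 CN3, 12.2 in albino CN6 and 11.7 in C57BL/6 CN6. Over 222 other settings of single keratins for EOM genotype, the call stayed in 213, was lost in 6 and gained in 3; the sign turned in 29, none called in either fit. Causes were not tested. Low counts limit Krt36, Krt79, Krt75 and Krt20.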
